A study of Homo sapiens and Homo sapiens
Mus with 12 samples.

Results

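The genes described here are 10 human genes of the mesenchymal cell state. They are the transcription factors ZEB1, ZEB2, SNAI1, SNAI2 and TWIST1 and the secreted or matrix proteins FN1, SPARC, TGFBI, CCN1 and CCN2. They were chosen by name, with earlier results of these data known. All 10 were found among the 21466 genes with values in cultured cells and among the 26813 human genes listed for xenograft tumors. RNA-seq was performed in UM-UC-3, a human cell line from an advanced bladder cancer, after lentiviral delivery of a nonsilencing hairpin (shCtrl) or of 1 of 2 hairpins against the cadherin CDH11 (sh#1 and sh#2, together called CDH11 KD). Every group carried a hairpin vector with GFP and was sorted for GFP, so that no group was free of virus. Cultured cells were grown for 24 h before RNA extraction, with 3 libraries of shCtrl, 3 of sh#1 and 3 of sh#2. Xenograft tumors came from the same 3 kinds of cells placed under the skin of 5-week-old nude mice, which lack T cells but keep their own fibroblasts, vessels and myeloid cells, and were taken after 4 weeks, with 5 tumors of shCtrl, 5 of sh#1 and 5 of sh#2. Each hairpin was represented by 1 infected and sorted population, and the labels do not say whether the 3 cultured libraries of a group came from separate cultures, so the p-values measure only the spread between these libraries.

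Epithelial-mesenchymal transition is the change by which cells with tight cell-cell contacts become loose, motile and rich in matrix. ZEB1, ZEB2, SNAI1 (Snail), SNAI2 (Slug) and TWIST1 are its core transcription factors. The ZEB and Snail proteins bind E-boxes and repress E-cadherin (CDH1) and other junction genes. Fibronectin (FN1) is a fibrillar matrix protein bound by integrins, SPARC is a secreted collagen-binding protein, and TGFBI is a secreted integrin ligand that is induced by TGF-beta in many cells. CCN1 (formerly CYR61) and CCN2 (formerly CTGF) are secreted matricellular proteins and are widely used readouts of the coactivators YAP and TAZ, which act through TEAD factors, while TGF-beta and SRF can also induce them. Poorly differentiated bladder cancer lines often carry a mesenchymal pattern of this kind.

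The total counts on genes ranged from 2273182 to 2777019 in the 9 cultured libraries and from 414849 to 1248977 human counts in the 15 tumors. CDH11 itself was barely detected in cultured cells, where the 3 shCtrl libraries held 2, 4 and 4 counts of it, the sh#1 libraries 0, 0 and 1, and the sh#2 libraries 1, 2 and 0, too few to pass the filter. Apart from these counts, the paper reports a significant loss of CDH11 mRNA and protein in its knockdown cells. In tumors CDH11 had 21, 12, 15, 32 and 5 counts in shCtrl, 1, 3, 9, 2 and 7 in sh#1 and 7, 14, 12, 6 and 2 in sh#2. CDH11 was lower in sh#1 than in shCtrl tumors (log2 fold change -1.67 ± 0.40, SE, adjusted p = 0.026), and the difference of sh#2 tumors from shCtrl was not past the threshold (-0.73 ± 0.35, adjusted p = 0.347). In the same order of tumors, mouse Cdh11 had 30, 23, 12, 27 and 9 counts in shCtrl. It had 1, 5, 28, 2 and 10 in sh#1 and 17, 30, 28, 10 and 7 in sh#2. The part of mouse reads in the human CDH11 counts was not tested. The cultured cells had a mixed pattern of markers. VIM, which encodes the intermediate filament vimentin, had 5189 to 8893 counts per library, whereas the epithelial genes CDH1, EPCAM and ESRP1 had 0 counts in all 9 libraries and CLDN4 had 1 count in 1 library. By group, VIM had 5436 to 6060 counts in shCtrl, 5189 to 6981 in sh#1 and 8227 to 8893 in sh#2. CDH2, another mesenchymal marker, had 99 to 106, 57 to 74 and 67 to 78 counts in the same order. The epithelial keratins KRT8 and KRT18 were expressed in every cultured library, with 253 to 345 and 287 to 539 counts, and the mesenchymal marker S100A4 had 0 to 8 counts. Mouse genes took 10.4% to 30.0% of the counts of a tumor. The highest share was that of sh#1 tumor 1, which also had the lowest human total, and results that this tumor decides are given with and without it. The 3 tumor groups were each sequenced in a library mix of their own, so that the mix and the group cannot be told apart.

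Promoter sequences were matched for 6 of the 10 genes (ZEB1, ZEB2, FN1, SPARC, TGFBI and CCN2). Those of CCN2 and TGFBI are shown because, of these 6, CCN2 rose under both hairpins and TGFBI moved in opposite directions. They come from RefSeq on GRCh38.p14, the same coordinates as the hg38 build used by the authors, and cover the 250 bases before a transcription start site. The CCN2 window is chr6:131951373-131951622 on the minus strand and the TGFBI window is chr5:136028738-136028987 on the plus strand. Capitals mark GGAATG, the motif bound by TEAD factors, and both sequences run 5′ to 3′ toward the gene.
CCN2: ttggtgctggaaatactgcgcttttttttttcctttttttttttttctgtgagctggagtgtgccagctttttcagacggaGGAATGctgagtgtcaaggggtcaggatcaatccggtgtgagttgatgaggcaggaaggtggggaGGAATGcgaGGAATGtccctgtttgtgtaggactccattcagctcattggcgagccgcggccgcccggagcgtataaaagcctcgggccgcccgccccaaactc
TGFBI: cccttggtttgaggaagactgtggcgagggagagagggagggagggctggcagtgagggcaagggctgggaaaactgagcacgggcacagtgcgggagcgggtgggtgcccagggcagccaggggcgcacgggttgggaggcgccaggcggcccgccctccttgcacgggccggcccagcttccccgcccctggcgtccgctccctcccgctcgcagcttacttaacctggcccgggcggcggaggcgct
The CCN2 window holds the TEAD motif 3 times on the strand of the gene, starting 169, 104 and 95 bases before the start site. The SPARC window holds it once on the opposite strand, and the windows of ZEB1, ZEB2, FN1 and TGFBI do not contain these letters. Of all 35116 windows of this length, 11.9% hold GGAATG on either strand. The E-box CACCTG, which is held by 17.5% of all windows, was found in the windows of 2 of the 7 ZEB1 start sites. The hypoxia response element ACGTG, held by 18.5%, was found in the window of ZEB2 and of 1 ZEB1 start site. The SRF CArG box, held by 1.16%, was found in no window of the 6 genes. Such a match describes letters and does not show binding.

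In cultured cells, CCN1 and CCN2 rose under both hairpins, SPARC fell under both, and TGFBI moved in opposite directions under sh#1 and sh#2. FN1 fell under sh#1 only among the comparisons with shCtrl, and the difference between the hairpins was itself past the threshold. Among the transcription factors, SNAI2 and ZEB2 rose under sh#2, and no difference from shCtrl was past the threshold for ZEB1, SNAI1 or TWIST1. All 10 genes passed the filter on low counts. In the comparison of CDH11 KD (6 libraries) with shCtrl (3 libraries), 4 of the 10 genes were past the threshold of an adjusted p of 0.05, against 17.4% of all 9859 genes tested. The count was 5 of 10 for sh#1 against shCtrl (22.4% of all genes tested) and 6 of 10 for sh#2 against shCtrl (38.3%). It was 5 of 10 for sh#1 against sh#2 (24.7%). The median log2 fold change of the 10 genes was 0.16 for CDH11 KD, 0.02 for sh#1 and 0.49 for sh#2 against shCtrl, and -0.47 for sh#1 against sh#2, whereas the median of all genes tested was within 0.01 of 0 in each. These comparisons share the shCtrl libraries. Groups did not overlap in normalized CPM for 3 of 10 members in CDH11 KD against shCtrl, and for 22% of all genes tested. This held for 5 of 10 in sh#1 against shCtrl (35.7% of all genes) and 6 of 10 in sh#2 against shCtrl (46.7%). Between sh#1 and sh#2 it held for 5 of 10 (37.7%). Because the members were chosen with earlier results of these data known, their counts beside the shares of all genes are a description. Values below are CPM, counts scaled to a common library size after TMM normalization, and they compare a gene between libraries and not with other genes. Because the 2 hairpins form 1 group in CDH11 KD, a difference between the hairpins adds to the spread of that group.

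**Figure D1:**
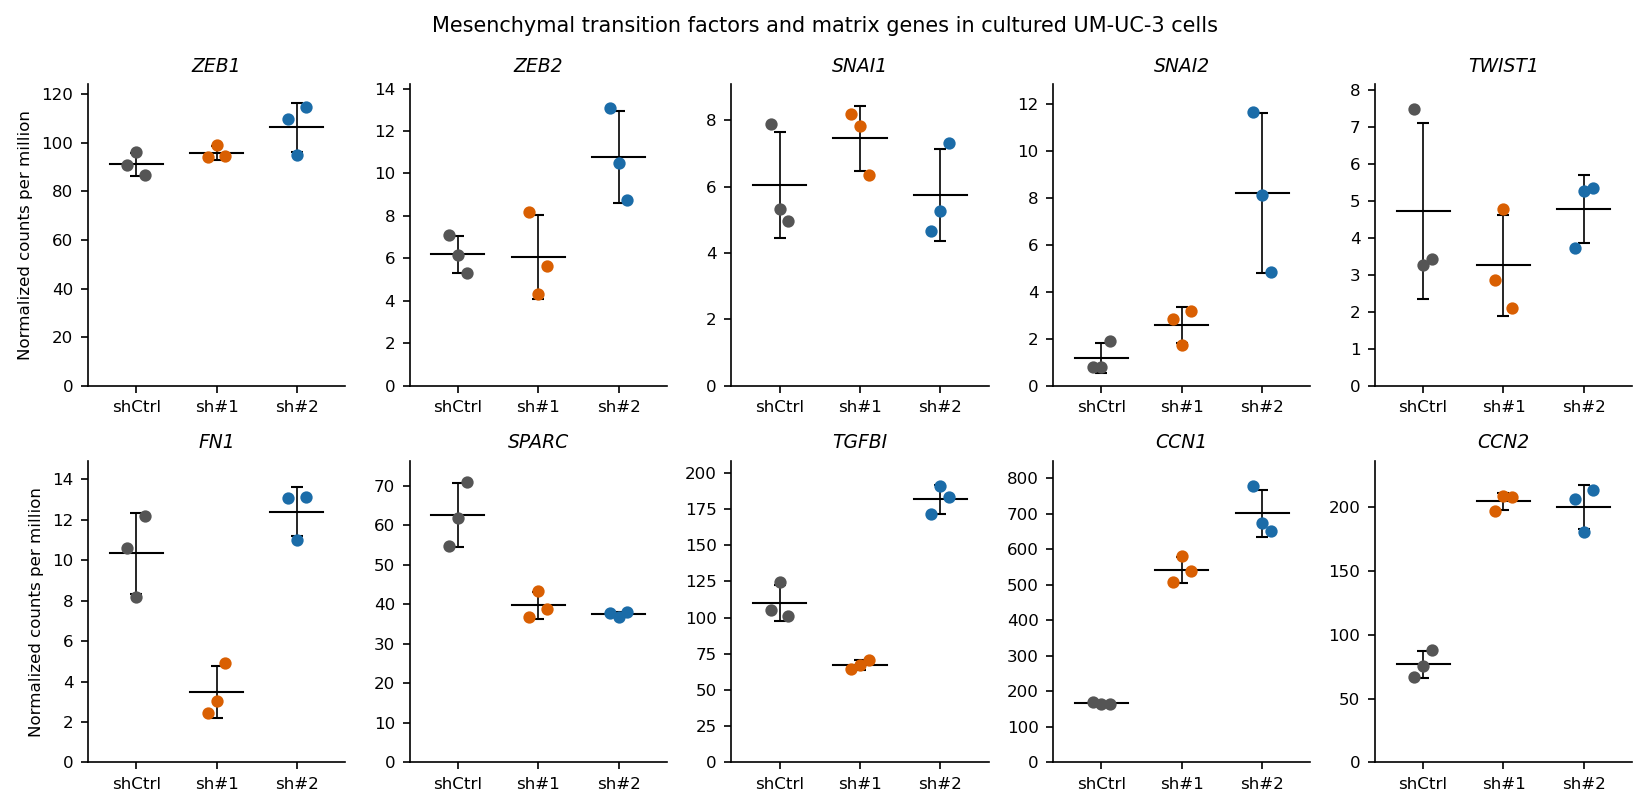
Normalized CPM of the 10 genes in cultured UM-UC-3 cells, 1 point for each library, with the mean (line) and SD (bar) of shCtrl, sh#1 and sh#2 (n = 3 each). Each panel has its own linear axis from 0. In CCN1 and CCN2 all 6 hairpin libraries lie above the 3 shCtrl libraries, in SPARC they lie below, and in TGFBI sh#1 lies below and sh#2 above. Of all 9859 genes tested, 22% did not overlap shCtrl for CDH11 KD, 35.7% for sh#1 and 46.7% for sh#2.

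CCN1 is at chr1:85580761-85584589 on the plus strand of hg38. The shCtrl libraries had 170, 165 and 164 normalized CPM, those of sh#1 had 507, 581 and 539, and those of sh#2 had 777, 674 and 651. Every hairpin library was far above every shCtrl library, and the sh#2 libraries were all above the sh#1 libraries. The mean went from 166 ± 3.55 (SD, n = 3) to 622 ± 99.5 (SD, n = 6) in CDH11 KD, a rise of 3.73-fold (log2 fold change 1.90 ± 0.13, SE, 95% confidence interval 1.63 to 2.17, adjusted p = 1.41e-08). The rise was 3.26-fold under sh#1 (adjusted p = 3.74e-27) and 4.21-fold under sh#2 (adjusted p = 1.70e-31). CCN1 was lower in sh#1 than in sh#2 by a log2 difference of -0.37 ± 0.06 (SE, adjusted p = 9.28e-06).

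CCN2, at chr6:131948176-131951372 on the minus strand, had 67.3, 75.4 and 88.4 normalized CPM in shCtrl, 197, 209 and 208 in sh#1 and 206, 181 and 214 in sh#2. The hairpin groups overlapped each other and did not overlap shCtrl. The rise in CDH11 KD was 2.63-fold (log2 fold change 1.39 ± 0.10, SE, 95% confidence interval 1.17 to 1.61, adjusted p = 5.41e-08). The 2 hairpins gave log2 fold changes of 1.41 ± 0.09 and 1.38 ± 0.09 (SE). Their difference was 0.03 with a 95% confidence interval of -0.13 to 0.19 (adjusted p = 0.807). The other genes of the CCN family, CCN3, CCN4, CCN5 and CCN6, had means under 5 counts per library or none and were not tested.

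SPARC, at chr5:151661096-151686975 on the minus strand, was the member that fell under both hairpins. It had 54.7, 61.9 and 70.9 normalized CPM in shCtrl, 36.9, 43.5 and 38.8 in sh#1 and 37.8, 36.8 and 38.0 in sh#2. The lowest shCtrl library was above the highest hairpin library. The fall in CDH11 KD was 1.62-fold (log2 fold change -0.69 ± 0.12, SE, 95% confidence interval -0.94 to -0.45, adjusted p = 0.00064). It was 1.58-fold under sh#1 (adjusted p = 5.46e-05) and 1.67-fold under sh#2 (adjusted p = 7.44e-06), and the hairpins differed by 0.08 (95% confidence interval -0.21 to 0.36, adjusted p = 0.737).

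TGFBI, at chr5:136028988-136063818 on the plus strand, split the hairpins. It had 105, 124 and 101 normalized CPM in shCtrl, 64.4, 66.9 and 70.8 in sh#1 and 171, 191 and 183 in sh#2. None of the 3 groups overlapped another. TGFBI fell 1.63-fold under sh#1 (log2 fold change -0.70 ± 0.10, SE, adjusted p = 1.06e-07) and rose 1.65-fold under sh#2 (0.73 ± 0.09, adjusted p = 8.30e-10). The difference of sh#1 from sh#2 was -1.43 ± 0.09 (SE, adjusted p = 1.97e-18). With both hairpins in 1 group the 2 directions met, and the comparison of CDH11 KD with shCtrl gave 0.17 with a 95% confidence interval of -0.88 to 1.22 (adjusted p = 0.836).

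FN1, at chr2:215360440-215436073 on the minus strand, was measured on few reads. It had 27, 20 and 32 counts in shCtrl, 6, 7 and 14 in sh#1 and 28, 23 and 27 in sh#2. Its normalized CPM was 10.6, 8.20 and 12.2 in shCtrl, 2.46, 3.04 and 4.93 in sh#1 and 13.1, 10.99 and 13.1 in sh#2, so that sh#1 lay below both other groups, which overlapped. FN1 fell 2.89-fold under sh#1 (log2 fold change -1.53 ± 0.32, SE, adjusted p = 0.000202). The value for sh#2 was 0.26 ± 0.26 (SE, adjusted p = 0.465), and the difference of sh#1 from sh#2 was -1.79 ± 0.32 (SE, adjusted p = 1.44e-05). In CDH11 KD against shCtrl FN1 was not past the threshold (-0.42 ± 0.46, adjusted p = 0.567). It passed when the 3 groups were fitted separately and the hairpin effects were averaged (-0.64, adjusted p = 0.039).

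**Figure D2:**
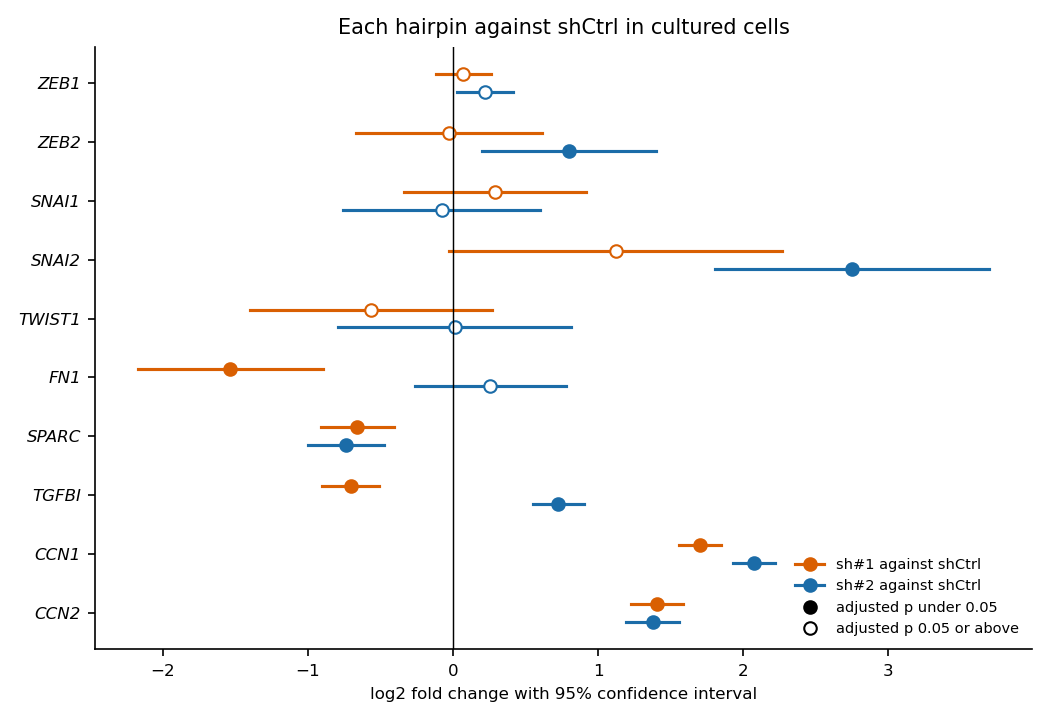
The log2 fold change of each gene for sh#1 (orange) and sh#2 (blue) against shCtrl in cultured cells, with its 95% confidence interval (line). Filled points have an adjusted p under 0.05. CCN1, CCN2 and SPARC have both points filled and on the same side of 0, whereas TGFBI has sh#1 at -0.70 and sh#2 at 0.73 and FN1 has only sh#1 filled. SNAI2 and ZEB1 also have both points above 0, without both being filled.

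ZEB1, at chr10:31318495-31529814 on the plus strand, was the transcription factor with the most counts, 199 to 268 in each library. Its normalized CPM was 90.9, 95.9 and 86.5 in shCtrl, 93.9, 99.1 and 94.4 in sh#1 and 110, 95.1 and 114 in sh#2. The groups of sh#1 and shCtrl overlapped. In CDH11 KD the log2 fold change was 0.15 ± 0.10 (SE, 95% confidence interval -0.06 to 0.36, adjusted p = 0.335). The value for sh#2 was 0.22 ± 0.10 (SE, adjusted p = 0.0589), and without sh#2 library 2 it was past the threshold (0.30, adjusted p = 0.0227).

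ZEB2, at chr2:144364364-144521057 on the minus strand, had 18, 15 and 14 counts in shCtrl, 20, 10 and 16 in sh#1 and 28, 22 and 18 in sh#2. In normalized CPM this was 7.09, 6.15 and 5.34 in shCtrl, 8.20, 4.35 and 5.64 in sh#1 and 13.1, 10.5 and 8.77 in sh#2, with the sh#2 group above both others. ZEB2 was 1.74-fold higher in sh#2 than in shCtrl (log2 fold change 0.80 ± 0.30, SE, adjusted p = 0.0279) and lower in sh#1 than in sh#2 (-0.83 ± 0.30, adjusted p = 0.0348). Neither call was made by DESeq2 (adjusted p = 0.119 and 0.153). The first was lost without shCtrl library 2 or 3 or sh#2 library 1 or 2 (adjusted p = 0.0536 to 0.149), and the second without sh#1 library 2 or 3 or sh#2 library 1 or 2 (0.0697 to 0.173).

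SNAI2 had 2, 2 and 5 counts in shCtrl, 7, 4 and 9 in sh#1 and 25, 17 and 10 in sh#2. All sh#2 libraries were above all other libraries, while sh#1 overlapped shCtrl in counts. SNAI2 was higher in sh#2 than in shCtrl (log2 fold change 2.75 ± 0.47, SE, adjusted p = 3.81e-06) and lower in sh#1 than in sh#2 (-1.63 ± 0.40, adjusted p = 0.00162). The value for sh#1 was 1.12 ± 0.57 (SE, adjusted p = 0.165). In CDH11 KD the rise was 4.32-fold (2.11 ± 0.65, SE, adjusted p = 0.0338), and it was no longer past the threshold without any 1 of the shCtrl libraries 1, 2 or 3 (adjusted p = 0.139, 0.131 and 0.065) or of the sh#2 libraries 1 or 2 (0.0538 and 0.0564).

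SNAI1, at chr20:49982980-49988886 on the plus strand, had 20, 13 and 13 counts in shCtrl, 20, 18 and 18 in sh#1 and 10, 11 and 15 in sh#2. TWIST1, at chr7:19020991-19117636 on the minus strand, had 19, 8 and 9 counts in shCtrl, 7, 11 and 6 in sh#1 and 8, 11 and 11 in sh#2. For both genes the 3 groups overlapped in normalized CPM, whereas in counts the SNAI1 libraries of sh#1 were all above those of sh#2. The log2 fold change in CDH11 KD was 0.13 ± 0.28 (SE, adjusted p = 0.789) for SNAI1 and -0.26 ± 0.38 (SE, adjusted p = 0.672) for TWIST1. At this depth a difference of up to about 0.72 for SNAI1 and from -1.06 to 0.53 for TWIST1 lay within the 95% confidence interval.

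The junction genes that ZEB and Snail factors are known to repress were nearly silent in these cells. Of 27 such genes, 12 had 0 counts in all 9 cultured libraries, 22 had a mean under 1 count, and 3 passed the filter. These 3 were OCLN, which encodes the tight junction protein occludin, PKP3, a desmosomal plakophilin, and PATJ, a polarity scaffold. None was past the threshold in CDH11 KD, with log2 fold changes of 0.02 for OCLN, 0.24 for PKP3 and 0.21 for PATJ (adjusted p = 0.958, 0.435 and 0.750). No higher level of CDH1, EPCAM or ESRP1 was seen, since no hairpin library had a count of them.

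Of the other transcription factors of the transition, 7 of 12 passed the filter. Of these, 1 rose and 2 fell in CDH11 KD, where 17.4% of all genes passed. ETS1, an ETS factor of invasive cells, rose from 145 ± 7.09 (SD, n = 3) to 499 ± 101 normalized CPM (SD, n = 6), a log2 fold change of 1.78 ± 0.16 (SE, adjusted p = 4.96e-06). FOXC1, a forkhead factor, fell by 1.19 on the log2 scale (adjusted p = 0.00433), and HMGA2, a chromatin protein of embryonic and tumor cells, fell by 0.42 (adjusted p = 0.0198). TCF3, TCF4, TCF12 and FOXC2 did not pass, with log2 fold changes of -0.14, 0.06, 0.09 and 0.41. The call of HMGA2 was lost without any 1 of the 3 shCtrl libraries (adjusted p = 0.0775, 0.0685 and 0.0632).

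CCN1 and CCN2 are read as YAP and TAZ targets, so the other genes of that pathway were counted. Of 18 other target genes tested, 5 rose and 0 fell in CDH11 KD, where 17.4% of all genes passed, with a median log2 fold change of 0.10 against 0.00 for all genes tested. Against shCtrl, 5 were higher and 2 lower under sh#1 (median 0.03), where 22.4% of all genes passed. Under sh#2, where 38.3% passed, 8 were higher and 1 lower (median 0.16). The 3 with the largest rise among those with a mean of at least 20 counts were IGFBP3, a binding protein of insulin-like growth factors (2.37 ± 0.11, SE, adjusted p = 4.43e-11), NUAK2, a kinase of the AMPK family (1.42 ± 0.26, adjusted p = 0.00114), and GADD45A, a stress response gene (1.36 ± 0.20, adjusted p = 0.000655). ANKRD1, a nuclear ankyrin repeat protein and another common readout of YAP, rose on few counts (3.76 ± 0.88, adjusted p = 0.0139). LATS2, a kinase that inhibits YAP and is itself a target, was the fifth (0.67 ± 0.20, adjusted p = 0.0307). ANKRD1 and LATS2 were named here after their values were seen. The other 13 were not past the threshold. The hairpins differed in 9 of the 18 (24.7% of all genes), of which 3 were higher in sh#1 and 6 in sh#2.

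The 17 regulators of the pathway that were tested had a median log2 fold change of -0.11 in CDH11 KD. Where 17.4% of all genes passed, 3 of them rose and 0 fell. They were LATS2, VGLL4, a TEAD cofactor that opposes YAP (0.58 ± 0.15, SE, adjusted p = 0.0135), and SAV1, the scaffold of the Hippo kinases (0.52 ± 0.17, adjusted p = 0.0401). Under sh#1, 5 genes rose and 0 fell (22.4% of all genes passed), and under sh#2, 1 rose and 6 fell (38.3%). In the direct comparison 4 were higher in sh#1 and 0 in sh#2 (24.7%). YAP1 had a log2 fold change of -0.53 under sh#2 (adjusted p = 0.00113) and WWTR1, which encodes TAZ, of -0.26 (adjusted p = 0.018), both chosen for naming after their values were seen. In CDH11 KD the call of LATS2 was lost without shCtrl library 1 or 3 or sh#1 library 3 (adjusted p = 0.0503 to 0.152), that of VGLL4 without shCtrl library 1 or 2 (0.0658 and 0.083), and that of SAV1 without any 1 library except sh#2 libraries 2 and 3 (0.0528 to 0.169).

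**Figure D3:**
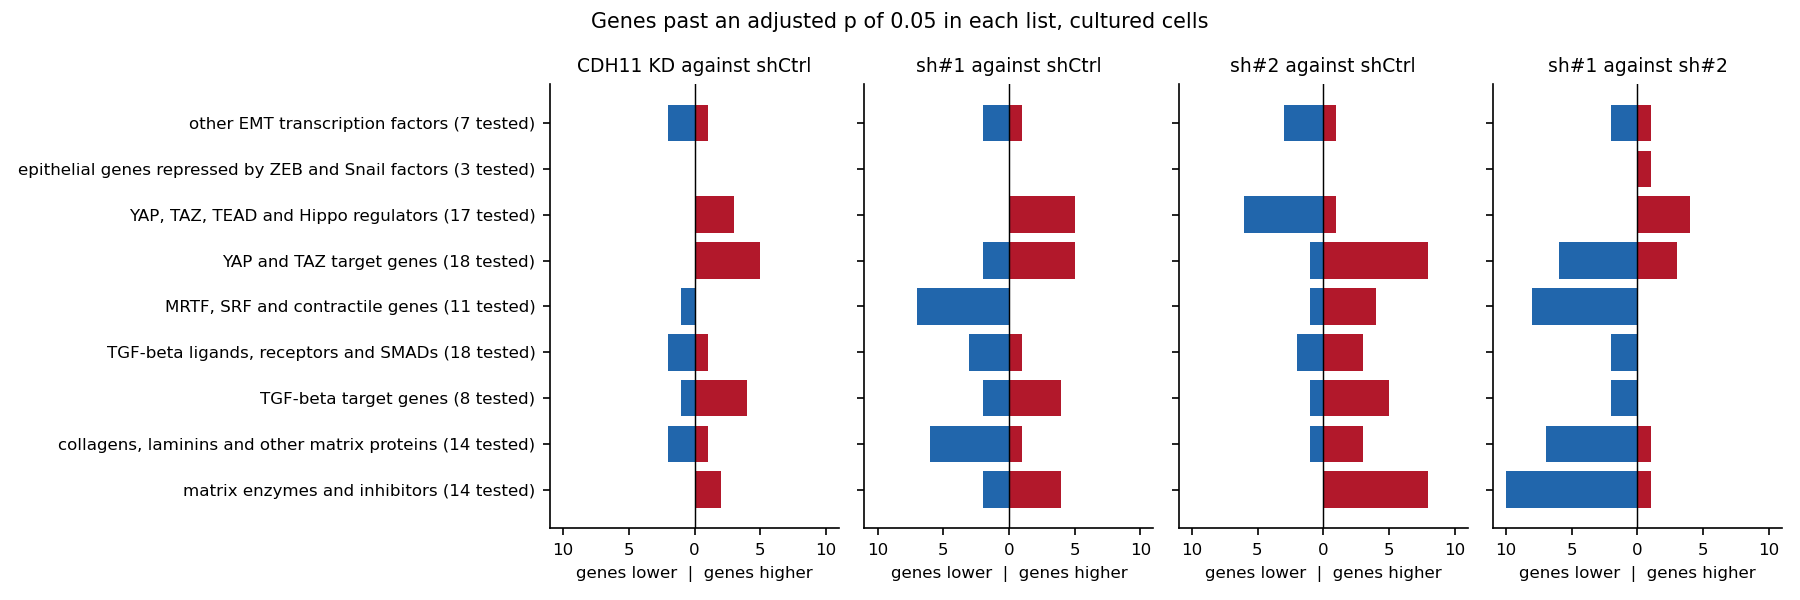
Number of genes past an adjusted p of 0.05 in each list in cultured cells, to the right for genes that were higher and to the left for genes that were lower in the first-named group, with the number tested in the label. The 4 panels share a linear axis. The MRTF, SRF and contractile genes are mostly to the left under sh#1 (7 lower) and mostly to the right under sh#2 (4 higher). Of all genes tested, 22.4% passed under sh#1 and 38.3% under sh#2.

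MRTF and SRF carry signals from actin to genes that include CCN1 and CCN2. Of 11 MRTF, SRF and contractile genes tested, 0 rose and 7 fell under sh#1 (22.4% of all genes passed). Under sh#2 4 rose and 1 fell (38.3%), and 8 were lower in sh#1 than in sh#2 (24.7%). For CDH11 KD the share of all genes was 17.4%. In CDH11 KD only SRF itself, the transcription factor that binds the CArG box, passed, going from 134 ± 10.7 (SD, n = 3) down to 84.6 ± 10.5 normalized CPM (SD, n = 6) (-0.66 ± 0.11, SE, adjusted p = 0.000547). The largest difference between the hairpins in this list was in CALD1, an actin-binding protein of contractile cells (-1.40, adjusted p = 9.28e-19), which was picked after its value was seen.

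Of 8 TGF-beta target genes, all tested, 4 rose and 1 fell in CDH11 KD, with a median log2 fold change of 0.50. In that comparison 17.4% of all genes passed. TGIF1 and JUNB, both transcription regulators, rose (0.67 ± 0.19, adjusted p = 0.0231, and 0.59 ± 0.19, adjusted p = 0.0412), and the inhibitory SMAD7 rose on a mean of 14.8 counts (1.77 ± 0.35, adjusted p = 0.0023), a gene named after its value was seen. PMEPA1, which encodes a membrane inhibitor of SMAD signaling, fell by 0.97 (adjusted p = 0.000441). Among 18 ligands, receptors and SMADs tested, SMAD7 was the 1 gene that rose, and SMAD3, the signal transducer, and SKI, its corepressor, fell (-0.48 ± 0.10, adjusted p = 0.00255, and -1.03 ± 0.22, adjusted p = 0.00452). The call of JUNB was lost in 10 of 16 alternative settings, DESeq2 and the removal of any 1 library except shCtrl library 2 and sh#1 library 2 among them (adjusted p up to 0.216), and that of TGIF1 without any 1 shCtrl library (0.071 to 0.0925).

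Most matrix genes were not expressed at a level that could be tested. Of 40 collagens, laminins and other matrix proteins besides the members, 14 were tested, with a median log2 fold change of -0.19 in CDH11 KD. There 1 rose and 2 fell, where 17.4% of all genes passed. LAMB3, a chain of laminin 332, rose (0.91 ± 0.26, SE, adjusted p = 0.0211), whereas COL4A2, a basement membrane collagen, and LAMA5, a laminin chain, fell (-0.56 ± 0.16, adjusted p = 0.0231, and -0.88 ± 0.22, adjusted p = 0.0113). Under sh#1, 1 gene rose and 6 fell (22.4% of all genes passed), and under sh#2, 3 rose and 1 fell (38.3%). Of the 14, 7 were lower and 1 was higher in sh#1 than in sh#2 (24.7%). With fewer shCtrl libraries these calls were lost while the directions stayed. COL4A2 had -0.60 to -0.49 without any 1 of the 3 (adjusted p = 0.0627 to 0.125), LAMB3 had 0.73 and 0.94 without library 1 or 3 (0.124 and 0.0732), and LAMA5 had -0.86 and -0.79 without library 2 or 3 (0.0539 and 0.0773).

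In CDH11 KD, where 17.4% of all genes passed, 2 of 14 matrix enzymes and inhibitors tested rose. They were PLOD2, a collagen lysyl hydroxylase, which went from 213 ± 1.73 (SD, n = 3) to 542 ± 170 normalized CPM (SD, n = 6, adjusted p = 0.0106), and P4HA1, a subunit of the collagen prolyl hydroxylase, which went from 94.1 ± 6.94 to 212 ± 55.3 (adjusted p = 0.00306). Under sh#2, 8 of the 14 rose and 0 fell (38.3% of all genes passed), and under sh#1, 4 rose and 2 fell (22.4%). Of the 14, 10 were lower and 1 was higher in sh#1 than in sh#2 (24.7%). PLOD2 had a log2 fold change of 0.86 under sh#1 and 1.71 under sh#2.

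Over the 9 cultured libraries, genes with the most similar log2 CPM were found for the 6 members with a mean of at least 20 counts, among 8105 genes. The 9 points share 3 groups, so that any gene that follows the groups correlates, and these values are a description. The closest to CCN1 were CXCL8, a neutrophil chemokine (Pearson r = 0.996), BHLHE41 (0.995) and BCL2A1 (0.995). The closest to CCN2 were ANKRD37 (0.993), PDE4D (0.992) and C8orf58 (0.989), and CCN1 and CCN2 had r = 0.965 with each other. SPARC was closest to CHAMP1 (0.981) and PIP4K2B (0.967) and had r = -0.940 with CCN1. TGFBI was closest to GOLGA7 (0.993), SLC25A37 (0.984) and ITGB1, the integrin beta 1 chain (0.979), and FN1 to CACNA2D1 (0.964), B4GALT1 (0.963) and CDK19 (0.960). FN1 and TGFBI had r = 0.857 with each other. For ZEB1 the closest were DYRK4 (0.951), CD2AP (0.944) and EMC3 (0.944).

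In xenograft tumors none of the members was past the threshold of an adjusted p of 0.1 in any of the 4 comparisons. Only 6 of the 10 genes passed the filter (ZEB1, ZEB2, FN1, SPARC, CCN1 and CCN2). The count was 0 of 6 in CDH11 KD against shCtrl, where 1.51% of all 9184 genes tested passed, and 0 of 6 in sh#1 against shCtrl (1.48%), sh#2 against shCtrl (2.68%) and sh#1 against sh#2 (1.19%). At an unadjusted p under 0.05, in edgeR, ZEB1 in sh#2 against shCtrl was the 1 result of these 24, and DESeq2 also called 0 members in each comparison. With 10 tumors against 5 and fewer counts per tumor, the intervals were wider than in cultured cells. In a bulk tumor, fewer cells of a kind and less RNA per cell cannot be told apart.

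**Figure D4:**
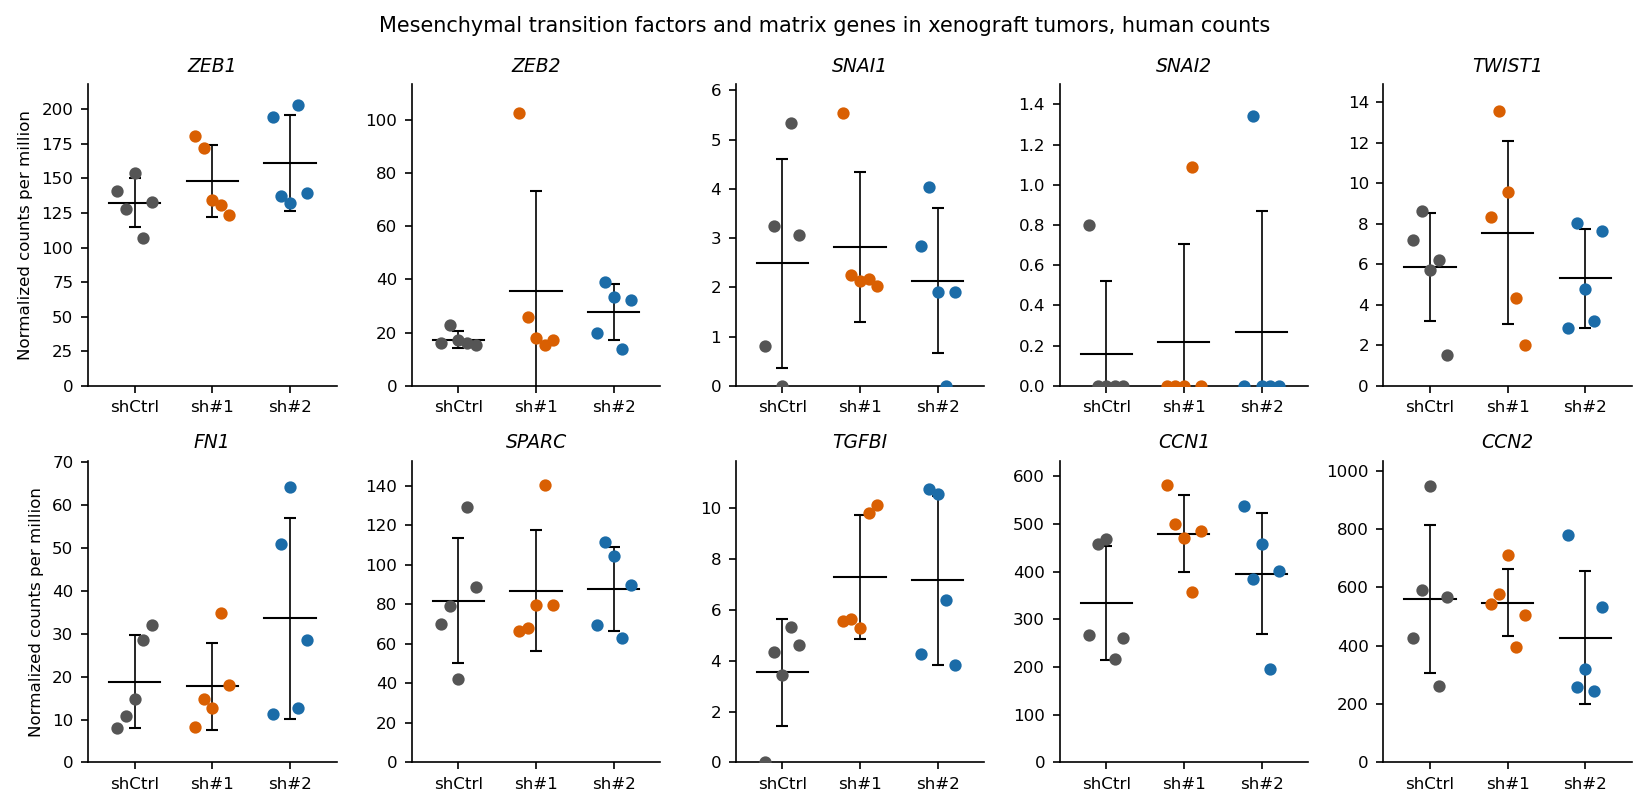
Normalized human CPM of the 10 genes in xenograft tumors, 1 point for each tumor, with the mean (line) and SD (bar) of shCtrl, sh#1 and sh#2 (n = 5 each). Each panel has its own linear axis from 0, at which the lower SD bars of ZEB2 in sh#1 and of SNAI2 in every group are cut off. In all 10 panels the hairpin groups overlap shCtrl. Of all 9184 genes tested, only 0.577% did not overlap shCtrl for CDH11 KD, 2.46% for sh#1 and 2.99% for sh#2.

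CCN1 had 266, 459, 469, 218 and 262 normalized CPM in shCtrl tumors, 583, 501, 471, 358 and 486 in sh#1 and 537, 386, 458, 195 and 401 in sh#2. The 4 highest sh#1 tumors were above all shCtrl tumors, whereas sh#1 tumor 4 and 3 of the sh#2 tumors lay within the shCtrl range. In CDH11 KD the log2 fold change was 0.38 ± 0.24 (SE, 95% confidence interval -0.13 to 0.90, adjusted p = 0.553). The upper bound of this interval is below the lower bound of the interval in cultured cells.

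CCN2 had 425, 591, 946, 261 and 568 normalized CPM in shCtrl tumors, 544, 578, 711, 395 and 506 in sh#1 and 781, 259, 322, 245 and 533 in sh#2. The groups overlapped over most of their range. In CDH11 KD the log2 fold change was -0.20 ± 0.32 (SE, 95% confidence interval -0.89 to 0.50, adjusted p = 0.851). shCtrl tumor 3 had the highest value, and without it the log2 fold change was 0.08 (adjusted p = 0.950).

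SPARC had 69.8, 79.0, 42.2, 129 and 88.9 normalized CPM in shCtrl tumors, 66.6, 67.8, 79.5, 140 and 79.8 in sh#1 and 69.7, 111, 104, 63.0 and 89.8 in sh#2. SPARC had a log2 fold change of 0.10 ± 0.22 (SE, 95% confidence interval -0.37 to 0.57, adjusted p = 0.901). FN1 had 8.02, 10.8, 14.8, 28.5 and 32.2 in shCtrl, 8.32, 14.7, 12.7, 34.8 and 18.2 in sh#1 and 11.4, 51.0, 64.2, 12.8 and 28.6 in sh#2, a log2 fold change of 0.55 ± 0.52 (SE, adjusted p = 0.717). For SPARC the groups overlapped over most of their range. For FN1 sh#2 tumors 2 and 3 were above every tumor of the other groups, and the other 3 sh#2 tumors lay within the shCtrl range.

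ZEB1 had 141, 128, 154, 107 and 133 normalized CPM in shCtrl tumors, 180, 172, 135, 130 and 123 in sh#1 and 195, 137, 132, 203 and 139 in sh#2. The groups overlapped, and 2 of the sh#2 tumors were the highest. Its log2 fold change was 0.22 ± 0.13 (SE, 95% confidence interval -0.04 to 0.47, adjusted p = 0.490), close to the value in cultured cells. ZEB2 had 16.0, 22.7, 17.1, 16.0 and 15.3 in shCtrl, 103, 26.0, 18.0, 15.2 and 17.2 in sh#1 and 19.9, 39.0, 33.5, 13.9 and 32.5 in sh#2. sh#1 tumor 1, with 37 counts in the shallowest library, stood far above the rest. The log2 fold change of ZEB2 was 0.68 ± 0.41 (SE, adjusted p = 0.528), without sh#1 tumor 1 it was 0.43 (adjusted p = 0.464), and with a covariate for the mouse share, taken as a ratio to human counts, it was 0.06 (adjusted p = 0.958).

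The other 4 members were below the filter in tumors and have no test. TGFBI had 0, 4, 3, 6 and 3 counts in shCtrl tumors, 2, 5, 5, 9 and 10 in sh#1 and 3, 8, 11, 6 and 2 in sh#2, whereas it had 154 to 400 counts per library in cultured cells, in deeper libraries and through another mapping program. SNAI2 had 1 count in each of 3 tumors, 1 in each group, and 0 in the other 12. SNAI1 had 0 to 6 counts and TWIST1 1 to 12 counts in a tumor, with overlapping groups.

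Matrix genes of a xenograft are also made by the mouse host, and a second table held counts on mouse genes. The share of the summed human and mouse counts that lay on the mouse gene was 84.2% for SPARC, 73.1% for TGFBI, 72.1% for FN1, 63.9% for ZEB2 and 90.9% for SNAI2, and it was 60.5% for SNAI1 and 52.4% for TWIST1. It was 6.39% for ZEB1, 6.55% for CCN1 and 2.62% for CCN2. The human and mouse counts of some genes were high in the same tumors. sh#1 tumor 1, with 37 human ZEB2 counts, had 96 mouse Zeb2 counts against 15 to 65 in the other tumors. sh#2 tumors 2 and 3, with 38 and 67 human FN1 counts, had 134 and 135 mouse Fn1 counts against 10 to 77 in the others. Human COL1A1, a fibroblast collagen, had 0 to 3 counts in a cultured library but 5 to 132 in a tumor, and its highest count was in sh#2 tumor 2, which also had the highest mouse Col1a1 count (1724). How reads of the 2 species were separated is not given in the sources used here. The part of mouse reads in the human values of CDH11, ZEB2, FN1 and SPARC was not tested. Of the fibroblast marker list, all 6 human genes had a count in some tumor, with a summed level of 24.8 to 77.5 CPM in shCtrl, 16.9 to 77.5 in sh#1 and 38.2 to 167 in sh#2 tumors, and of 1.70 to 3.05, 1.28 to 1.76 and 0.42 to 1.72 CPM in the cultured groups in the same order. The human endothelial list was at 3.35 CPM or below and the leukocyte list at 3.15 or below in each tumor. Of the 4 endothelial genes, 2 were listed among the human genes of tumors. In cultured cells the leukocyte list was at 32.7 to 37.0 CPM in shCtrl, 43.1 to 49.9 in sh#1 and 48.8 to 65.7 in sh#2. Its gene CD68 had 75 to 150 counts in a cultured library and 0 or 1 in a tumor.

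Whether the effect of CDH11 KD differed between cultured cells and tumors was tested directly, as an interaction in limma over 8307 genes that passed the filter in both tables. The difference was past an adjusted p of 0.05 for 3 of the 6 members tested, against 9.25% of all genes. For CCN1 the log2 fold change was 1.88 in cultured cells and 0.40 in tumors, a difference of 1.49 ± 0.33 (SE, 95% confidence interval 0.80 to 2.18, adjusted p = 0.00675). For CCN2 it was 1.40 and -0.17, a difference of 1.57 ± 0.45 (SE, 95% confidence interval 0.64 to 2.51, adjusted p = 0.032). For SPARC it was -0.69 and 0.15, a difference of -0.83 ± 0.27 (SE, 95% confidence interval -1.37 to -0.29, adjusted p = 0.0437). The differences of ZEB1 (-0.06 ± 0.17, adjusted p = 0.876), ZEB2 (-0.12 ± 0.48, adjusted p = 0.907) and FN1 (-1.19 ± 0.74, adjusted p = 0.349) were not past it. FN1 was past it in 1 of 28 alternative settings, with sh#1 as the only hairpin (-1.69, adjusted p = 0.0467), and was -0.56 with sh#2 as the only hairpin.

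The call of CCN1 was kept in all 28 alternative settings, with an adjusted p of at most 0.0245. The call of CCN2 was lost in 6 of 28 and that of SPARC in 17 of 28, among them the edgeR interaction for SPARC (adjusted p = 0.0753). CCN2 was lost with sh#1 as the only hairpin (adjusted p = 0.0826), without cultured shCtrl library 1, 2 or 3 (0.0941, 0.0789 and 0.065) and without shCtrl tumor 2 or 3 (0.0531 and 0.0613). SPARC was lost without any 1 cultured library other than sh#1 library 2, without shCtrl tumor 1, 2 or 3 and without sh#2 tumor 2, 3 or 5 (adjusted p up to 0.141). Over all 28 settings the adjusted p of SPARC was at most 0.166. Cells in dishes and tumors differ in their environment, their sequencing platform, the program that mapped the reads and the presence of mouse reads. These cannot be told apart as sources of a difference between the systems.

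**Figure D5:**
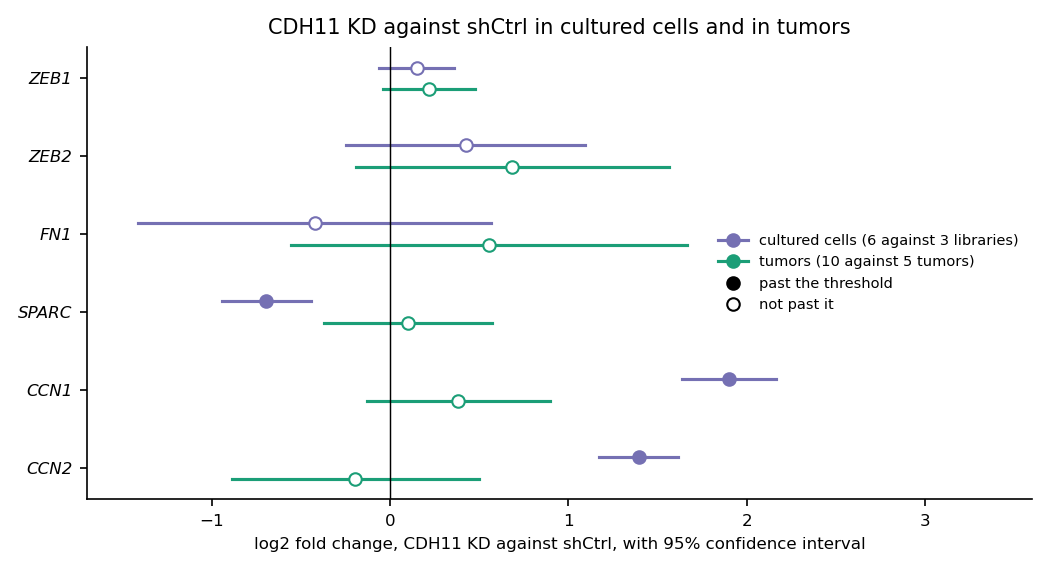
The log2 fold change of CDH11 KD against shCtrl with its 95% confidence interval for the 6 members tested in both systems, in cultured cells (purple, threshold 0.05) and in tumors (green, threshold 0.1). Filled points are past the threshold. The intervals of CCN1, CCN2 and SPARC in cultured cells exclude 0, whereas every interval in tumors includes 0.

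In tumors, 96 genes of the 10 lists were tested, counting genes of 2 lists for each, and 0 rose and 1 fell in CDH11 KD, where 1.51% of all genes passed. The gene was FJX1, a secreted Golgi protein on the list of YAP and TAZ targets, going from 120 ± 34.2 (SD, n = 5) to 82.7 ± 17.4 normalized CPM (SD, n = 10) (-0.53 ± 0.15, SE, adjusted p = 0.0936), and its call was lost in 15 of 23 alternative settings, with an adjusted p of up to 0.347 without shCtrl tumor 2. IGFBP3 was not past the threshold in tumors, and ETS1 had a log2 fold change of 0.06 there (adjusted p = 0.890). Under sh#1 0 genes of the lists passed, against 1.48% of all genes. Under sh#2, where 2.68% of all genes passed, 4 were higher (TCF12, HMGA2, PTPN14 and FLNA) and 1 lower (FJX1). All 5 were named after their values were seen.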

How the data were processed

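Gene-level read counts were deposited by the authors as whole numbers, not normalized, for 9 cultured libraries and, in separate human and mouse tables, for 15 xenograft tumors. Reads of cultured cells were trimmed in CLC Genomics Workbench and mapped to hg38 with RaNAseq, and reads of tumors were trimmed with Trim Galore and mapped to hg38 with HISAT2. The counting tool, the annotation and the separation of human from mouse reads are not given in the sources used here. Genes without values in the cultured table were not analysed here, and the unused sample columns numbered 0.

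Groups followed the sample labels. Counts were filtered with filterByExpr, scaled by TMM and tested with the edgeR (4.0.16, R 4.3.3) quasi-likelihood test with Benjamini-Hochberg adjustment over all genes tested, at 0.05 in cultured cells and 0.1 in tumors. CDH11 KD was compared with shCtrl in a 2-group fit and single hairpins in a 3-group fit, and these comparisons share the shCtrl libraries. The difference between systems was fitted in limma (3.58.1) with voom and quality weights. DESeq2 (1.42.0), upper quartile scaling, other filters, a replicate block and leaving out each library were alternatives. Standard errors were derived from the F statistic, and the scripts were tested on simulated counts. Replicates were compared by chi-square and none was a duplicate.

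The members and gene lists were chosen with earlier results of these data known. All 10 members were named. From each list, up to 3 rising and 3 falling genes with the largest change for CDH11 KD were named if their adjusted p passed and their mean reached 20 counts, genes of the lists that did not pass could be named as background, and the most correlated genes, up to 3, were named for each member of that level. Other genes are stated as chosen after their values were seen. A few genes that these rules would name are not reported here. Totals were 2273182 to 2777019 counts in cultured libraries and 414849 to 1248977 human counts in tumors, so that genes of a few counts, such as SNAI2, carry wide intervals.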

Additional observations from a re-analysis of the deposited data

Results flagged for a closer look

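Single tumors stood apart from the other 4 of their group by Dixon's test. ZEB2 had 22.7 normalized CPM in shCtrl tumor 2 against 15.3 to 17.1 in the others, and 103 in sh#1 tumor 1 against 15.2 to 26.0. SPARC had 140 normalized CPM in sh#1 tumor 4 against 66.6 to 79.8 in the others. Of 18 groups of 5 tumors examined, 3 held such a tumor, and chance alone flags about 1 in 20 groups.

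The effect of CDH11 KD differed between cultured cells and tumors in the limma interaction for CCN1 (log2 difference, cultured minus tumors, 1.49), CCN2 (1.57) and SPARC (-0.83). Of 28 alternative settings, the call of CCN1 was kept in all, that of CCN2 was lost in 6 and that of SPARC in 17.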

How the results depend on the processing

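In cultured cells the number of members past the threshold stayed within 3 to 5 for CDH11 KD, 4 to 5 for sh#1 and 5 to 6 for sh#2 against shCtrl. For sh#1 against sh#2 it was 5 in the main fit and stayed within 3 to 5. It was 4 to 5 without 1 library, and 3 with at least 10 counts required in every library. In tumors it was 0 under every alternative run. The number of members whose effect differed between systems was 3, and the 28 alternative settings gave 1 to 3. Leaving out single libraries alone also gave 1 to 3. With the replicate block, 3 members passed for CDH11 KD in cultured cells (SNAI2 adjusted p = 0.0729) and 1246 genes instead of 1719, and no other member count changed. Among list genes the block ended the calls of LATS2, SAV1, JUNB and FJX1 (adjusted p = 0.0667, 0.0554, 0.0723 and 0.113). Same-numbered libraries showed little shared deviation (correlations -0.01 to 0.06 in cultured cells and -0.10 to 0.13 in tumors). Such values cannot exclude that libraries of the same number were made together.

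The number of genes called for CDH11 KD in cultured cells was 3291 with the mean of both hairpins from 3 groups and 882 to 1888 without 1 library, and with DESeq2 it was 1346 for sh#1 against shCtrl (2209 in edgeR) and 1533 for sh#1 against sh#2 (2431). In tumors it ranged from 48 to 399 for CDH11 KD, 69 to 287 for sh#1, 126 to 552 for sh#2 and 44 to 173 for sh#1 against sh#2. The difference between systems was called for 446 genes with sh#1 only and 1758 with sh#2 only.

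Directions turned for values near 0, none past a threshold. TWIST1 for sh#2 in cultured cells was -0.026 with upper quartile scaling. In tumors FN1 for sh#1 was -0.038 in DESeq2 and -0.087 with the block, CCN2 for sh#1 was 0.035 with the block, and SPARC for sh#1 against sh#2 was -0.055 with the block and -0.040 with the mouse to human ratio as a covariate. The ZEB2 difference between systems was 0.23 with sh#2 only. Leaving out 1 library gave -0.46 to 0.23 for TWIST1 in CDH11 KD and -0.18 to 0.50 in sh#2, -0.29 to 0.15 for ZEB2 in sh#1, -0.28 to 0.16 for SNAI1 in sh#2 and -0.036 to 0.081 for CCN2 in sh#1 against sh#2, all in cultured cells. In tumors it gave -0.34 to 0.32 for FN1 in sh#1, -0.060 to 0.34, -0.15 to 0.35, -0.070 to 0.33 and -0.23 to 0.11 for SPARC in CDH11 KD, sh#1, sh#2 and sh#1 against sh#2, -0.38 to 0.083 and -0.21 to 0.26 for CCN2 in CDH11 KD and sh#1, and -0.52 to 0.25 for ZEB2 in sh#1 against sh#2. For the difference between systems it gave -0.26 to 0.044 for ZEB2 and -0.11 to 0.030 for ZEB1. The cause was not tested. Members below the filter in tumors could not be fitted.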
